A study of Mus musculus with 6 samples.

Results

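The forkhead genes encode the Fox family of transcription factors. All 41 autosomal protein-coding genes of the GENCODE annotation of mouse GRCm38 with a symbol of Fox, a letter and a number were taken, out of 20807 autosomal protein-coding genes, and 3 Fox genes on chromosome X were left out. The rule for a member used the gene's name and no measured value. The promoter of a gene was set as 1000 bp on each side of every annotated transcript start, and the gene body as the span of the gene record.

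The study asked how inflammation acts on the colonic epithelium during tumor development, and the libraries described here are ChIP-seq of histone marks in colonic organoids of C57BL/6 mice, which are cultures of epithelial cells grown from the colon. Organoids without added cytokine (wt) were set against organoids kept with the inflammatory cytokine TNFα at 40 ng/ml for 3 weeks (wt+TNFα). Trimethylation of histone H3 at lysine 4 (H3K4me3) and at lysine 27 (H3K27me3) was measured with 1 library per mark and condition, and 1 input library was sequenced per condition. With 1 library per group no difference described here has a replicate check, and none has a p-value. The sources used here do not say whether the wt and wt+TNFα cultures came from the same animal, so the effect of TNFα and a difference between cultures cannot be told apart.

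Forkhead factors bind DNA through a winged-helix domain, and the FoxA factors are known as pioneer factors that open compact chromatin in the endoderm, from which the colonic epithelium arises. FoxO factors are held out of the nucleus by insulin and Akt signalling, FoxM1 drives genes of cell division, and the FoxF factors and FoxL1 mark the mesenchyme beneath the gut epithelium. H3K4me3 marks promoters that are active or poised. H3K27me3 is laid down by the Polycomb complex and marks silenced developmental genes, often over wide domains. A promoter with both marks is called bivalent, but in a mixed culture both peaks need not lie on the same chromatin, and fewer marked cells and less mark per cell cannot be told apart.

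The H3K4me3 lists held 11552 peaks in wt and 11894 in wt+TNFα, and the H3K27me3 lists held 30594 and 60540. H3K27me3 peaks covered 101 Mb of the autosomes in wt organoids and 228 Mb after TNFα. Across all genes a wider or new H3K27me3 domain was therefore common in the wt+TNFα list, and the share over all genes is given beside the counts of forkhead promoter states. The lowest −log10 q in the H3K27me3 lists was 0.302 in wt and 0.747 in wt+TNFα, so the lists had unlike floors. The paper reports no genome-wide difference in these marks with TNFα, from their intensity at transcription starts. It reports lower H3K27me3 at promoters of stem cell genes whose expression rose. On chromosome X H3K27me3 peaks took up 0.597 Mb without TNFα and 74.7 Mb with it, while 3 and 0 H3K4me3 peaks lay on chromosome Y. These differences were not tested for a part in the results, and whether the cultures came from animals of different sex cannot be told apart from TNFα here. By the read totals in the study's reporting summary, the H3K4me3 and input libraries of wt+TNFα were sequenced more deeply than those of wt, and the H3K27me3 libraries were of similar depth. The part of depth in the differences was not tested. Of 14 markers of colonic epithelium, 12 promoters carried H3K4me3 alone in wt and 11 did in wt+TNFα, where Krt20 had neither mark, while Lgr5 and Muc2 had H3K27me3 alone in both. None of 10 mesenchymal, 8 immune, 5 endothelial and 5 glial or neuronal markers had an H3K4me3 peak at the promoter in either condition.

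Promoter sequences were taken from RefSeq (GRCm38.p6), which had an entry for 26 of the 41 genes. The 250 bases before the RefSeq start of 6 of them follow, 5′ to 3′, with every CG dinucleotide in capitals, because each stands for a state described below. For Foxl2 the RefSeq start lies 319 bp downstream of the GENCODE start used for its other values, so its stretch lies inside the gene. Foxa3 (chr7:19023540-19023789, minus strand) and Foxd2 (chr4:114908899-114909148, minus strand) lay under H3K4me3, Foxd3 (chr4:99656049-99656298, plus strand) under H3K27me3, and Foxc1 (chr13:31806396-31806645, plus strand) under both. Foxl2 (chr9:98955357-98955606, plus strand) lay under H3K27me3 and was one of the genes whose call differed between the conditions, and Foxi1 (chr11:34208090-34208339, minus strand) lay under no peak.
Foxa3: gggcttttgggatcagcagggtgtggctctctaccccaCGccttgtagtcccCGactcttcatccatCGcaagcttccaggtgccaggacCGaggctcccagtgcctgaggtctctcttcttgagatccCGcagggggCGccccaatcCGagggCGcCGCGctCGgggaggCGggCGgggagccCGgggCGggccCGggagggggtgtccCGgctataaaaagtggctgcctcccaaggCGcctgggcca
Foxd2: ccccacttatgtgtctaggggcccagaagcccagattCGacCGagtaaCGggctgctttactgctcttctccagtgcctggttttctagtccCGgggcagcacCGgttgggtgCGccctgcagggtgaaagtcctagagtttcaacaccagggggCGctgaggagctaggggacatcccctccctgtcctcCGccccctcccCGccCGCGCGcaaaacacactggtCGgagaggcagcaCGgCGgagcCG
Foxd3: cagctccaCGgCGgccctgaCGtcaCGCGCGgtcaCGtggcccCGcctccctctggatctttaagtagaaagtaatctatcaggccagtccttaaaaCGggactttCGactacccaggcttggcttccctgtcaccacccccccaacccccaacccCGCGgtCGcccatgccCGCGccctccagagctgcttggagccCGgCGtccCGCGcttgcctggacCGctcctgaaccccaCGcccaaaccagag
Foxc1: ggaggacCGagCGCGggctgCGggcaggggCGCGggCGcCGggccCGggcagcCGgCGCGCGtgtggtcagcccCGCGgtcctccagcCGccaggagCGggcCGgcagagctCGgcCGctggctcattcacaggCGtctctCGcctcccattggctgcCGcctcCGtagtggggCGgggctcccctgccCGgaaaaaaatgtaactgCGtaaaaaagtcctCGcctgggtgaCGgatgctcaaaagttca
Foxl2: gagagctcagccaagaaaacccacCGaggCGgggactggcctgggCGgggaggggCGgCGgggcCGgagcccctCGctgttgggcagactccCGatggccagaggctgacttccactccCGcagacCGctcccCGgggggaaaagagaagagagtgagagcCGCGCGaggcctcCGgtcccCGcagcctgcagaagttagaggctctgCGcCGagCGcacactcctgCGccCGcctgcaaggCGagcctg
Foxi1: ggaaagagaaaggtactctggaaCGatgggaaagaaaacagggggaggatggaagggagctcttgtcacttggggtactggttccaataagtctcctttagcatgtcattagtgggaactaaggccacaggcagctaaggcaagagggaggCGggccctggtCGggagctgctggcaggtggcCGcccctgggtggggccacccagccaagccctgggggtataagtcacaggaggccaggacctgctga
These stretches held 18 CG in Foxa3, 16 in Foxd2, 21 in Foxd3, 29 in Foxc1, 22 in Foxl2 and 4 in Foxi1. The paralogs Foxd2 and Foxd3 thus carried opposite marks over stretches that were both rich in CG.

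In wt organoids the forkhead genes were spread over all 4 promoter states. H3K4me3 alone was called at 14 genes (34.1%), against 46.4% of all autosomal protein-coding genes. When peaks had to exceed the median −log10 q of their list the count was also 14, against 30.4% of all genes, so the forkhead share was then not below. Both marks were called at 8 genes (19.5%), against 5.39% of all genes, and at 1 forkhead gene and 0.985% of all genes when peaks had to exceed the median −log10 q of the list they came from. H3K27me3 alone was called at 14 genes (34.1%), against 16.9% of all genes, and neither mark at 5 genes (12.2%), against 31.3%. In wt+TNFα the counts were 14 genes with H3K4me3 alone (34.1%, all genes 45.9%), 6 with both marks (14.6%, all genes 6.70%), 17 with H3K27me3 alone (41.5%, all genes 20.8%) and 4 with neither (9.76%, all genes 26.7%). Under the same stricter limit on q, H3K4me3 alone was called at 13 of the 41 genes in wt+TNFα (all genes 31%), so the forkhead share was again not below. The count with both marks in wt+TNFα was 1 under that limit (all genes 1.33%) and 2 when the lists of each mark were cut to equal covered length (all genes 2.61%). Other families of developmental regulators held fewer genes with H3K4me3 alone: 3 of 39 Sox, Pax and Tbx genes (7.69%) and 1 of 40 homeobox genes of the Nkx, Lhx, Dlx, Irx and sine oculis families (2.5%) in wt. H3K27me3 alone was called at 29 (74.4%) and 36 (90%) of them. These shares are descriptions, and no test was made between the families.

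**Figure D1:**
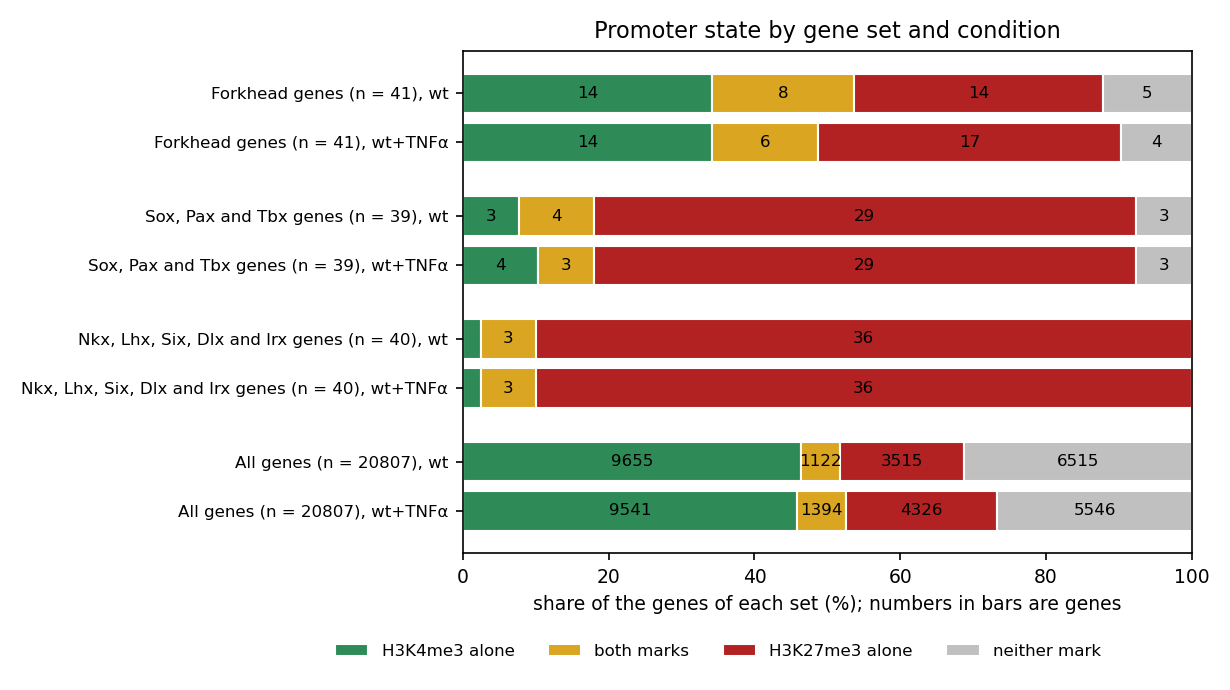
Share of genes (%, x axis) in each promoter state for forkhead genes, 2 other groups of regulators and all autosomal protein-coding genes, in wt and wt+TNFα, with the number of genes in each bar segment. Forkhead genes have 14 genes with H3K4me3 alone in both conditions, and H3K27me3 alone goes from 14 genes in wt to 17 in wt+TNFα.

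The 14 genes with H3K4me3 alone had a median length of 49865 bp, with a range of 2592 to 597384 bp. Of them, 11 had more than 1 annotated start, and only Foxd2 had a single exon. A gene with more starts has more promoter bases in which a peak can be called. The 14 genes with H3K27me3 alone in wt had a median length of 3018 bp, and 8 of them had a single exon. Genes with both marks had a median length of 5270 bp, and those with neither mark a median of 4843 bp.

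The endoderm factors Foxa1, Foxa2 and Foxa3 had H3K4me3 alone in both conditions. The Foxa1 peak was 7217 bp wide in wt and 7484 bp in wt+TNFα, wider than 99.8% of each list, and covered all of the promoter and 96.6% and 97.0% of the gene body. Its fold enrichment over the local background was 49.6 in wt and 39.9 in wt+TNFα. The nearest H3K27me3 peak was 347781 bp from a start in wt and 347392 bp in wt+TNFα. Foxa3 had a peak of 3101 bp in wt and 4080 bp in wt+TNFα with a fold enrichment of 59.3 and 60.4, above 99.3% and 99.6% of the peaks of each list. That peak also covered the start of Sympk, which begins 839 bp away on the other strand, so its signal cannot be given to Foxa3 alone. Foxa2 was lower, with peaks of 3690 and 3614 bp and fold enrichments of 23.9 and 28.5, near the median of each list. H3K27me3 came near this gene: the nearest peak lay 5004 bp from a start in wt and 2135 bp in wt+TNFα.

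The FoxO factors, which act downstream of insulin and Akt, differed among themselves. Foxo1 had an H3K4me3 peak of 3499 bp in wt and 3506 bp in wt+TNFα, with a fold enrichment of 48.2 and 30.6, or above 94.1% and 59.6% of the list. The width was thus alike while the rank of the enrichment was lower in wt+TNFα. Foxo3 went the other way, with fold enrichments of 32.1 and 44.6 (above 68.4% and 90.1% of the list) and widths of 5122 and 4749 bp. The third autosomal FoxO gene, Foxo6, which is known from the brain, had both marks. A narrow H3K4me3 peak of 769 bp in wt and 705 bp in wt+TNFα lay inside an H3K27me3 domain of 57839 bp in wt and 79303 bp in wt+TNFα. The H3K4me3 fold enrichment of Foxo6 was 14.8 in wt and 7.82 in wt+TNFα.

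Foxm1, the regulator of the G2 and M phases, shared its H3K4me3 peak with Rhno1, whose start lies 56 bp away on the other strand. The peak was 1721 bp wide in wt and 1833 bp in wt+TNFα, enriched 38.6-fold and 52.8-fold. Foxk1 and Foxk2, known for control of glycolysis and autophagy, had peaks of 1689 and 1801 bp in wt and 1574 and 1896 bp in wt+TNFα. Their fold enrichments were 41.0 and 46.9 in wt, and 43.2 and 55.6 in wt+TNFα. The peak of Foxj3 had a fold enrichment of 27.9 in wt, above 58.3% of the list, and 67.0 in wt+TNFα, above 99.96% of the list. This was the largest difference in rank among the genes with H3K4me3 alone, while the width was 1963 bp in wt and 2085 bp in wt+TNFα. The start of Frg2f1 lies under the same peak. Foxj2 had peaks of 1686 bp and 1766 bp with fold enrichments of 47.5 and 42.2. In wt+TNFα a separate peak of 520 bp (enriched 8.24-fold) lay at another of its starts. Foxn2 had peaks of 2002 and 2084 bp with fold enrichments of 50.7 and 46.6.

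Of the FoxP factors, which include repressors active in airway and gut epithelium, Foxp1 and Foxp4 had H3K4me3 alone. Foxp4 had a peak of 2907 bp in wt and 3585 bp in wt+TNFα, enriched 53.3-fold and 50.7-fold. Foxp1 has 22 annotated starts, and H3K4me3 peaks lay at 3 groups of them in both conditions, the widest of 4853 bp in wt and 4465 bp in wt+TNFα. Only 27% of its promoter bases in wt and 26% in wt+TNFα were under a peak, and 10 of its starts had neither mark in their window in either condition.

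Foxd2, a FoxD gene described in kidney development, was the only single-exon gene with H3K4me3 alone, and its peak differed most in width among the forkhead H3K4me3 peaks. It spanned 7178 bp in wt, wider than 99.8% of the list, and 3620 bp in wt+TNFα, 0.504 times as wide. The fold enrichment was 25.3 in wt and 36.6 in wt+TNFα. All of the promoter and the start of Foxd2os, a non-coding gene that starts 384 bp away on the other strand, remained under the peak, so neither promoter call differed. The share of the gene body covered was 100% in wt and 75.0% in wt+TNFα. No H3K27me3 peak reached the promoter, and the nearest lay 15153 bp away in wt and 5532 bp in wt+TNFα.

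**Figure D2:**
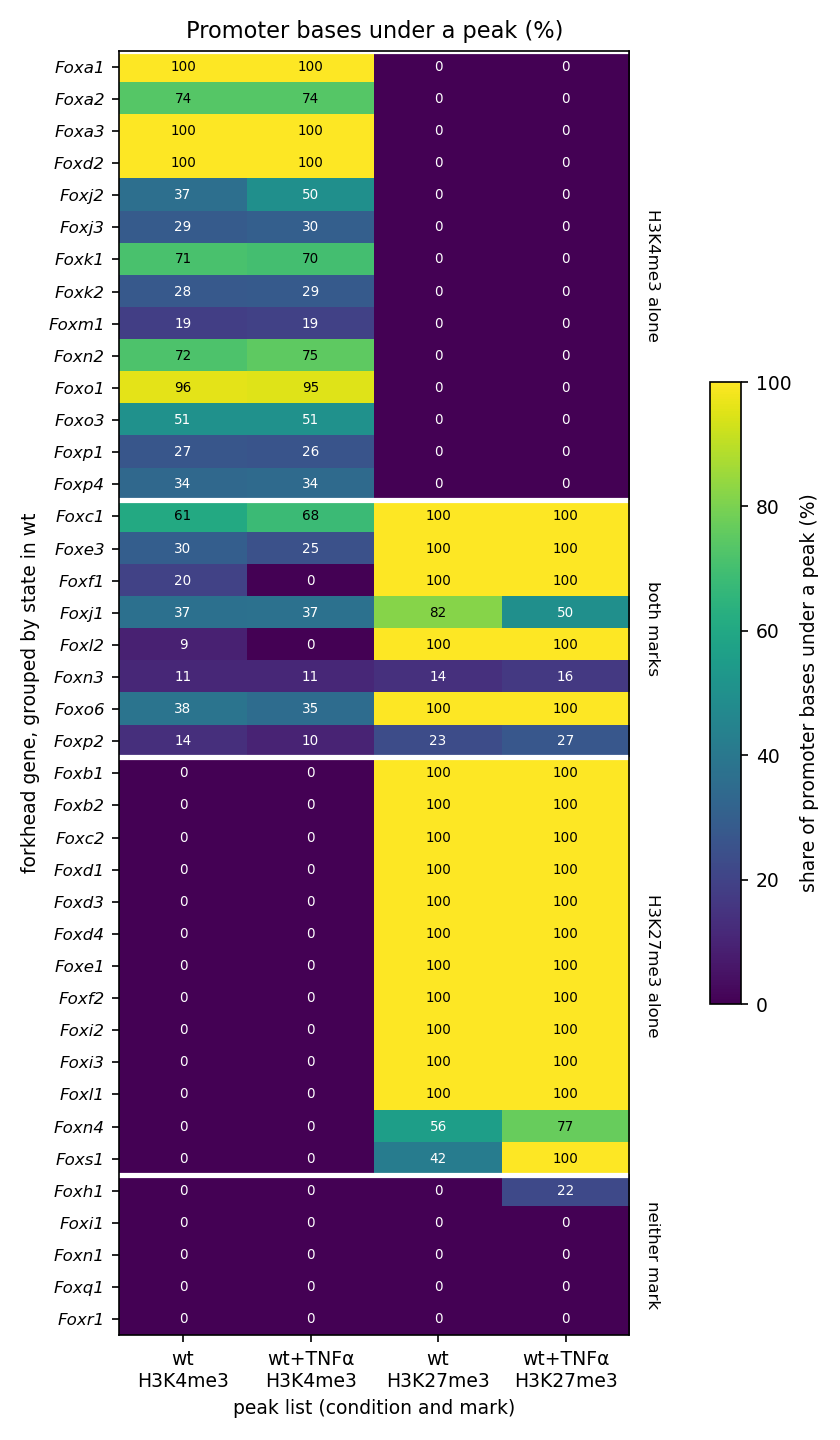
Share of promoter bases (%, colour and number) of 40 forkhead genes (rows, grouped by state in wt) under a peak of each list (columns). Among the 8 genes with both marks, Foxf1 and Foxl2 have 0 under H3K4me3 in wt+TNFα, and Foxj1 goes from 81.9% to 49.9% under H3K27me3.

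Both marks were called at Foxc1, Foxe3, Foxf1, Foxj1, Foxl2, Foxn3, Foxo6 and Foxp2 in wt. H3K4me3 was narrow at most of them: the median width of the widest promoter peak was 755 bp, against 3004 bp at the genes with H3K4me3 alone, and the median fold enrichment was 8.49 against 43.9. In wt+TNFα the medians were 1349 bp and 9.82 over 6 genes, against 3546 bp and 43.9.

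At Foxn3 and Foxp2 the marks did not meet. Foxn3, a repressor linked to cell-cycle checkpoints, has 14 annotated starts, and none had both marks in its window. An H3K27me3 peak of 11987 bp in wt and 17051 bp in wt+TNFα covered the outermost start, while the H3K4me3 peak of 2342 bp and 2246 bp had its summit 170919 bp downstream in wt and 170899 bp in wt+TNFα. With a fold enrichment of 44.0 in wt and 40.8 in wt+TNFα, this inner peak was as strong as those of genes with H3K4me3 alone. Foxp2, known for neural circuits of vocal learning, was arranged alike. Of its 16 starts, 4 had H3K4me3 alone and 6 had H3K27me3 alone in wt, and none had both. Its H3K4me3 was weaker, with 1 peak of 3028 bp and a fold enrichment of 7.53 in wt, and peaks of 379 bp and 1951 bp in wt+TNFα, enriched 5.24-fold and 9.36-fold. When both marks had to lie on shared bases, 6 forkhead genes remained in wt (all genes 3.72%) and 4 in wt+TNFα (all genes 4.15%).

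Foxj1, the master regulator of motile cilia, carried the strongest H3K4me3 among the genes with both marks on shared bases. Its peak was 741 bp wide in wt and 746 bp in wt+TNFα, enriched 23.5-fold and 19.2-fold. H3K27me3 covered 81.9% of its promoter bases in wt and 49.9% of them in wt+TNFα, although it was wider in wt+TNFα (3252 bp against 2635 bp) and covered more of the gene body (69.3% against 42.5%). H3K27me3 thus lay over the start in wt and ended 3 bp from it in wt+TNFα. The bases with both marks in the promoter numbered 741 in wt and 105 in wt+TNFα. Foxj1 was the only forkhead gene with promoter bases under H3K27me3 in wt alone, 1 of 41 (2.44%) against 5.49% of all genes. With H3K27me3 peaks of a −log10 q of at least 2 the count was still 1, near the 2.18% of all genes.

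Foxc1, which acts in the eye and the vasculature, had both marks in both conditions with all peaks. It had H3K27me3 alone in wt+TNFα at equal covered length, and in both conditions with peaks above their list's median −log10 q. Its H3K4me3 peak was 2457 bp in wt and 2577 bp in wt+TNFα, enriched 9.46-fold and 10.3-fold, inside H3K27me3 peaks of 19383 bp and 29103 bp. Foxe3, a gene of the lens, had an H3K4me3 peak of 595 bp and 494 bp with a fold enrichment of 4.70 and 4.71, among the lowest of each list. Its H3K27me3 peak was 3827 bp wide in wt and 17130 bp in wt+TNFα.

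The promoter state differed between wt and wt+TNFα at 3 forkhead genes (7.32%), Foxf1, Foxl2 and Foxh1, against 9.71% of all genes, so the share was near that background. At equal covered length the count was 6 (all genes 10.4%). Foxc1, Foxe3, Foxo6 and Foxp2 then had both marks in wt and H3K27me3 alone in wt+TNFα. With equal numbers of peaks it was 4 (9.76%, all genes 8.33%), and with promoters of 500 bp on each side 1 (all genes 8.99%). The first 2 of these lay above the background by few genes, and both cuts removed peaks from the wt+TNFα lists alone. No direction against all genes is therefore read from them. Foxf1, a target of hedgehog signalling in gut mesenchyme, had an H3K4me3 peak of 392 bp in wt with its summit at −590 bp from the start, a fold enrichment of 5.18 and a −log10 q of 12.9. In wt+TNFα the nearest H3K4me3 peak lay 23072 bp away. The wt peak was weak, with a fold enrichment above only 1.67% of its list. H3K27me3 covered the whole promoter in both conditions, by a peak of 24760 bp in wt and 33080 bp in wt+TNFα, enriched 4.46-fold and 4.96-fold. The non-coding RNA gene Fendrr, which starts 1276 bp away on the other strand, had both marks in wt through the same H3K4me3 peak and H3K27me3 alone in wt+TNFα. Foxl2, a factor of ovarian granulosa cells, had an H3K4me3 peak of 348 bp in wt, of which 186 bp lay in the promoter, with a fold enrichment of 4.61 and a −log10 q of 8.05. In wt+TNFα the nearest one lay 17814 bp away. Its H3K27me3 peak was 19293 bp in wt and 33836 bp in wt+TNFα. Over all genes, 94 of 1122 with both marks in wt (8.38%) had H3K27me3 alone in wt+TNFα.

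Foxh1, a partner of Smad proteins in Nodal signalling, had neither mark in wt, where the nearest H3K27me3 peak lay 48203 bp away. In wt+TNFα an H3K27me3 peak of 1609 bp covered 22.3% of its promoter and 61.2% of its body. That peak was weak, with a fold enrichment of 1.93 and a −log10 q of 1.66. Over all genes, 990 of 6515 with neither mark in wt (15.2%) had H3K27me3 alone in wt+TNFα.

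H3K27me3 bases in wt+TNFα alone were found at the promoters of 5 forkhead genes (12.2%), Foxh1, Foxn3, Foxn4, Foxp2 and Foxs1, against 18.2% of all genes. The count ranged from 2 to 8 over 10 other settings, with Foxs1 called under 9 of them, Foxn4 under 8, Foxp2 under 7, Foxh1 under 6 and Foxn3 under 3. Foxs1, known from pericytes, had 42.0% of its promoter under H3K27me3 in wt and 100% in wt+TNFα. The wt peak ended 161 bp from the start and had a −log10 q of 1.41, while the wt+TNFα peak had 8.42. Its width was 22492 bp in wt and 55521 bp in wt+TNFα, where it covered promoters of Dusp15 and Ttll9 besides that of Mylk2, which the wt peak also reached. Foxn4, a gene of retinal progenitors and spinal interneurons, had 55.9% of its promoter covered in wt and 76.8% in wt+TNFα, by peaks of 31757 bp and 48354 bp. The bases gained by the other genes of this group were few, 478 bp at Foxh1, 381 bp at Foxn3 and 589 bp at Foxp2. H3K4me3 bases in wt+TNFα alone were found at 11 forkhead promoters (26.8%), against 42.0% of all genes, and H3K4me3 bases in wt alone at 12 (29.3%), against 21.4% of all genes. Most were a shift of a peak edge by under 200 bp. The counts ranged from 1 to 18 and from 2 to 14 over the other settings. With whole peaks subtracted, H3K4me3 in wt+TNFα alone was at 1 forkhead promoter (2.44%), near the 1.88% of all genes.

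H3K27me3 alone was called in both conditions at 14 forkhead genes, against 3222 of the 20807 genes, among them Foxb1, Foxb2, Foxc2, Foxd1, Foxd3, Foxd4, Foxe1, Foxf2, Foxi2, Foxi3, Foxl1, Foxn4 and Foxs1. Many of these genes are known as regulators of tissues other than the gut epithelium: Foxd1 of the kidney stroma, Foxd3 of the neural crest, Foxe1 of the thyroid and Foxi3 of ectodermal placodes. Except for Foxn4 and Foxs1, the whole promoter of each lay under H3K27me3 in both conditions. None had an H3K4me3 peak at the promoter, and at Foxb1 the nearest was 228223 bp away in wt.

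The H3K27me3 domains at forkhead promoters were wide. The median width of the widest promoter peak was 19338 bp in wt and 31012 bp in wt+TNFα, against 5340 bp and 8551 bp for all genes with a promoter peak. Peaks of 10000 bp or wider lay at 18 of the 22 forkhead promoters with H3K27me3 in wt (81.8%) and at 19 of 23 in wt+TNFα (82.6%), against 26.5% and 44.6% of all genes with a promoter peak. In the other families the shares were 75.8% and 81.2% for Sox, Pax and Tbx genes and 89.7% and 94.9% for the homeobox genes, with no test of a difference. The widest peak in wt was that of Foxf2, at 61361 bp, and the widest in wt+TNFα that of Foxd1, at 85475 bp, where it was 51757 bp in wt. Foxe1 had 32219 bp in wt and 64397 bp in wt+TNFα. The highest H3K27me3 fold enrichments were 4.84 at Foxl2 in wt and 5.45 at the peak that Foxc2 and Foxl1 share in wt+TNFα.

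Foxd3, whose promoter is printed above, had a peak of 23089 bp in wt and 31799 bp in wt+TNFα, enriched 4.40-fold and 4.96-fold. Foxd4, an early neural gene, had the largest relative difference in width, 12134 bp in wt and 55936 bp in wt+TNFα, which is 4.61 times as wide. Its fold enrichment was 4.30 in wt and 3.07 in wt+TNFα. Foxf2, the partner of Foxf1 in gut mesenchyme, was the only one with a narrower peak in wt+TNFα, 52288 bp. A weak H3K4me3 peak of 363 bp lay in its gene body in wt, and none did in wt+TNFα.

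Of the 22 forkhead genes with an H3K27me3 promoter peak in both conditions, 21 had a wider one in wt+TNFα (95.5%), against 86.6% of all such genes, and the median ratio of widths was 1.46 against 1.72. For H3K4me3 the peak was wider in wt+TNFα at 11 of 20 forkhead genes (55%), against 75.9% of all such genes, with a median ratio of 1.00 against 1.07. The whole gene body lay under H3K27me3 at 14 forkhead genes in wt (34.1%) and at 18 in wt+TNFα (43.9%), against 2.57% and 4.51% of all genes. Gene length was not matched in this comparison, and a domain at the promoter covers a short gene, as many forkhead genes with H3K27me3 alone are, more readily. The median share of the gene body under H3K27me3 was 11.0% in wt and 61.2% in wt+TNFα, and 0 for all genes in both. That median falls among the few genes with partial cover, Foxr1 in wt and Foxh1 in wt+TNFα, and their weak peaks decide it.

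**Figure D3:**
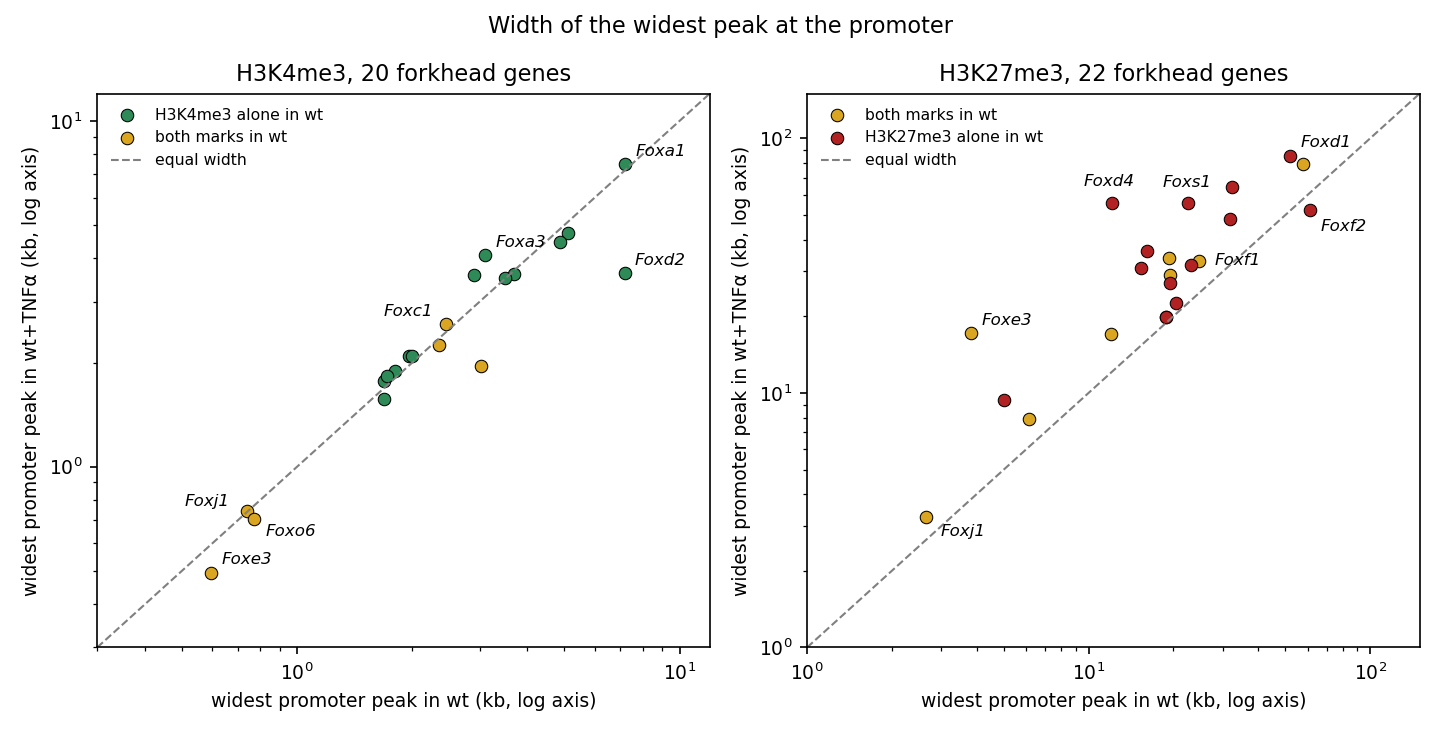
Width of the widest promoter peak in wt (x axis, kb, log axis) and wt+TNFα (y axis, kb, log axis) for each forkhead gene with a peak in both, coloured by state in wt, with a dashed line at equal width. For H3K27me3, 21 of 22 genes lie above the line and Foxf2 below it, and for H3K4me3 Foxd2 lies farthest below, at 7178 bp in wt and 3620 bp in wt+TNFα.

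Neither mark was called at Foxh1, Foxi1, Foxn1, Foxq1 and Foxr1 in wt. Foxi1, a gene of the inner ear and of ion-transporting cells, lay far from any peak, with the nearest H3K27me3 peak 101370 bp away in wt and 83230 bp in wt+TNFα. Foxn1, the factor of thymic epithelium and hair follicles, had its nearest H3K4me3 peak 34828 bp away in wt. Foxq1, which is known from hair and gut epithelium, was put in this state by its annotated start and the width of the promoter window, and had H3K4me3 alone in both conditions with 2000 bp on each side. An H3K4me3 peak of 3333 bp in wt and 3925 bp in wt+TNFα covered 68.8% and 79.2% of its single-exon body, with fold enrichments of 31.6 and 41.0. The peak began 1137 bp from the start in wt and 1005 bp in wt+TNFα, just outside the promoter. The gene A530084C06Rik, on the other strand, has its start under the same peak, so both genes share that signal. Foxr1 had no promoter peak, and H3K27me3 covered 11.0% of its body in wt and 50% in wt+TNFα.

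Several forkhead genes lie next to each other. Foxf1, Foxc2 and Foxl1 span 46259 bp (chr8:121084386-121130644, GRCm38), with 28027 bp between Foxf1 and Foxc2 and 9045 bp between Foxc2 and Foxl1. Foxc2, a factor of lymphatic vessels, and Foxl1, a marker of the cells beneath the crypts, lay under a single H3K27me3 peak of 18879 bp in wt and 19894 bp in wt+TNFα. H3K27me3 covered 56.8% of this span in wt and 60.5% in wt+TNFα, and the H3K4me3 peak between Foxf1 and Foxc2 is that of Mthfsd. Foxq1, Foxf2 and Foxc1 span 256343 bp (chr13:31556134-31812476), with 55.1% under H3K27me3 in wt and 72.3% in wt+TNFα. Foxq1 and Foxf2 alone span 75270 bp, with 56.9% under H3K27me3 in wt and 55.3% in wt+TNFα, while Foxc1 lies more than 100 kb from Foxf2. Within the wider span Foxq1 had H3K4me3 in its body, Foxf2 had H3K27me3 alone and Foxc1 had both. Foxd2 and Foxe3 lie 16274 bp apart (chr4:114906282-114926013). H3K4me3 covered 31.1% of their span in wt and 20.8% in wt+TNFα, and H3K27me3 10.1% and 15.0%.

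**Figure D4:**
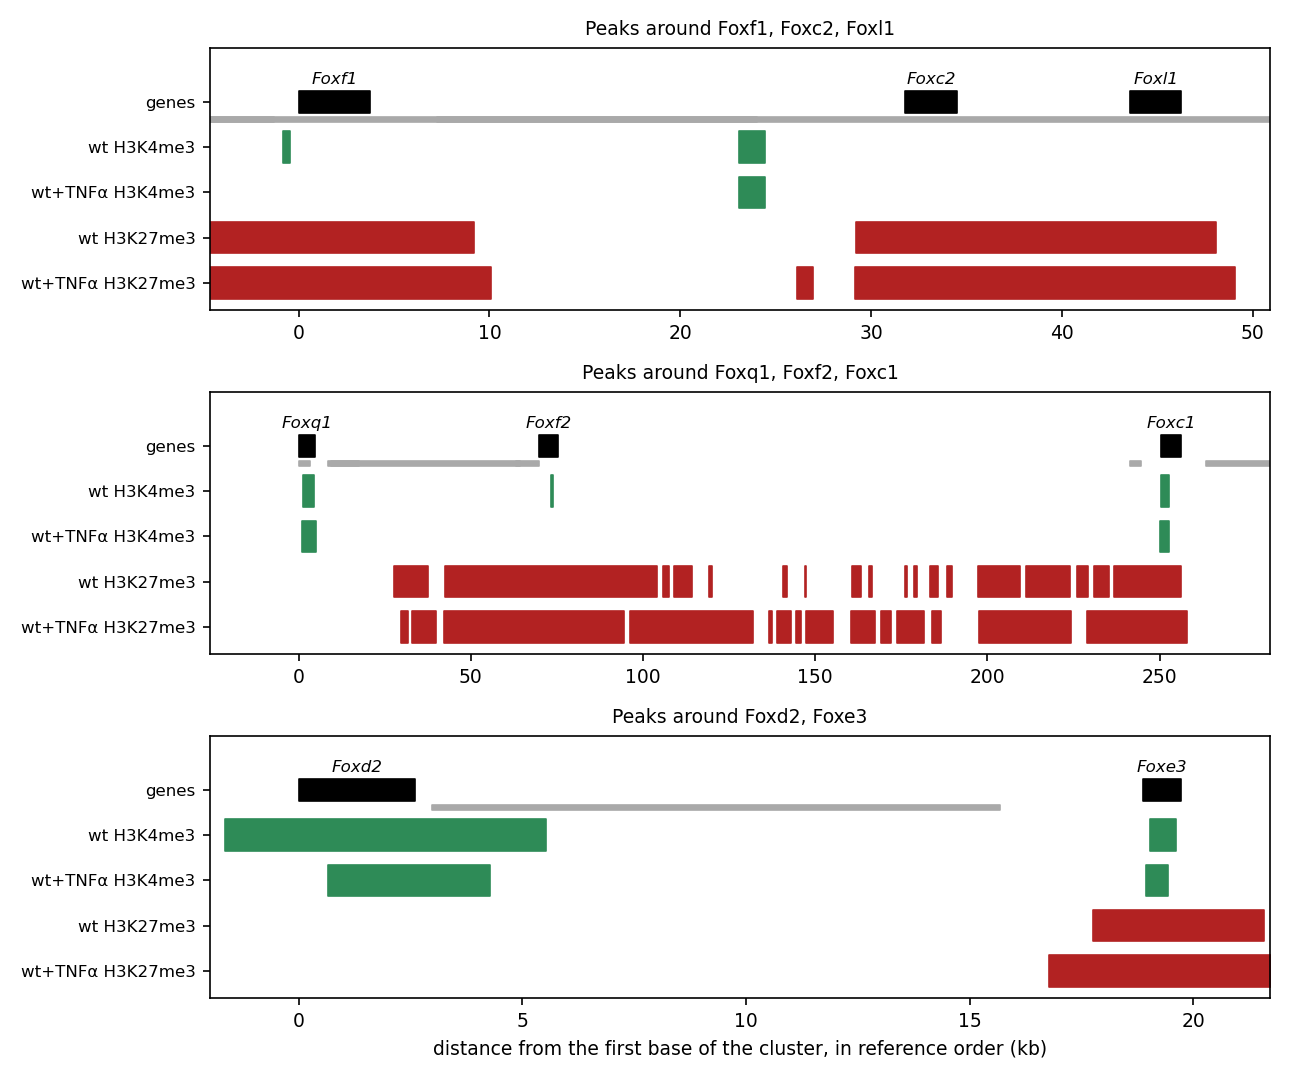
Peaks of the 4 lists (rows) around 3 groups of neighbouring forkhead genes (black boxes, other genes as grey lines), by distance in kb from the first base of each group. The H3K4me3 peak of 392 bp before Foxf1 is seen in wt only, and the peak over Foxd2 is 7178 bp in wt and 3620 bp in wt+TNFα.

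The number of CG dinucleotides in the promoters differed between the states. Over the 300 bases around the start (250 before and 50 after), forkhead promoters with H3K4me3 alone on those bases in wt had a median of 31 CG (11 genes), those with H3K27me3 alone 18.5 (10 genes), and those with neither 7 (4 genes). Foxc1, with both marks, had 32. The same order was found over all autosomal promoters of the RefSeq table, with medians of 23 CG for H3K4me3 alone, 29 for both, 10 for H3K27me3 alone and 3 for neither. Foxk2 had the most CG, 59, and Foxi2 the fewest, 5. At Foxn3 the RefSeq entry lies 113508 bp from the outermost start and under no peak. Of the 26 RefSeq starts, 23 lay within 1000 bp of the outermost GENCODE start. The forkhead motif TGTTTAC, searched on both strands, was found in 1 of the 26 promoters (3.85%, Foxa1), against 3.71% of all autosomal promoters. The variant TGTTTGC was found in Foxj3 and Foxp1 (7.69%, all promoters 5.09%), and TATAAA in Foxa3 (3.85%, all promoters 13.6%). A match is a stretch of letters and not a binding site.

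**Figure D5:**
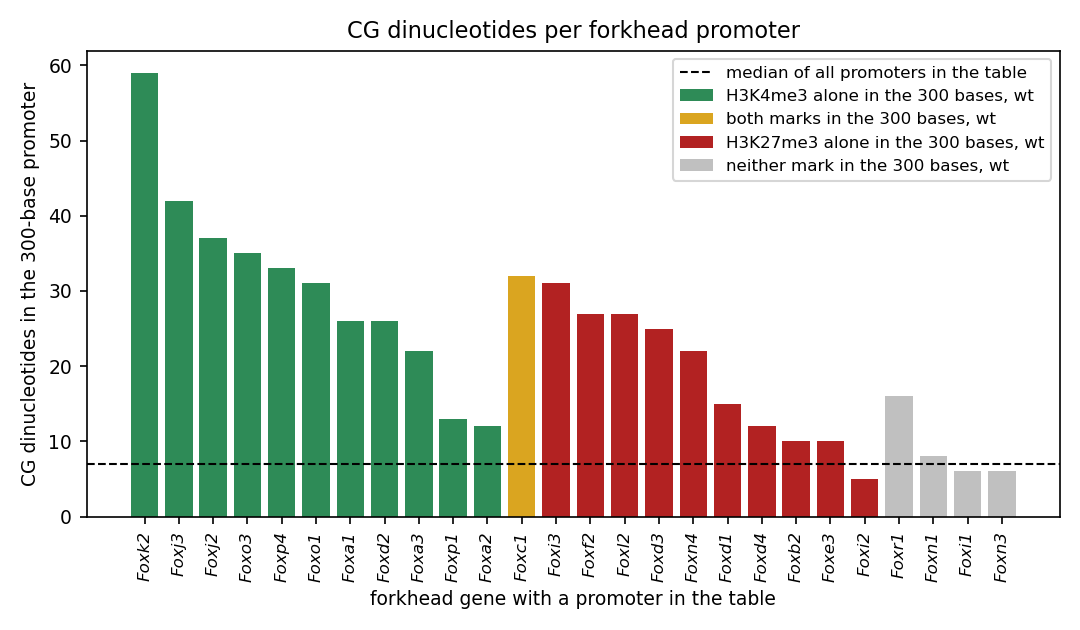
Number of CG dinucleotides (y axis) in the 300-base promoter of each of the 26 forkhead genes with a RefSeq entry (x axis), coloured by the marks on those bases in wt, with a dashed line at the median of all autosomal promoters, 7. Promoters with H3K4me3 alone range from 12 (Foxa2) to 59 (Foxk2), and those with neither mark from 6 to 16.

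Partners and targets of forkhead factors were described by the same states, beside which 46.4% of all genes had H3K4me3 alone and 16.9% had H3K27me3 alone in wt, and 45.9% and 20.8% in wt+TNFα. All 12 targets of FoxM1 in the division list, among them Ccnb1, Plk1 and Aurka, had H3K4me3 alone in both conditions. Of 23 genes of FoxO signalling, 16 had H3K4me3 alone in both conditions, among them Akt1, Cdkn1b and Sesn1. The insulin receptor substrate Irs1 and the kinase gene Sgk1 had both marks, and H3K27me3 covered 25.4% of the Irs1 promoter in wt and 100% in wt+TNFα. Trim63 and Klf15 had H3K27me3 alone, Pdk4 and Pck1 neither mark, and the gluconeogenic G6pc neither mark in wt and H3K27me3 alone in wt+TNFα. Of 13 partners of FoxA in the gut, 11 had H3K4me3 alone in both, among them Hnf4a, Cdx2 and Klf5. Gata5 had H3K27me3 alone, and Gata4 had both marks in wt and H3K27me3 alone in wt+TNFα. Of 13 hedgehog and mesenchymal signalling genes, 9 had H3K27me3 alone in both conditions, among them Gli1, Gli2, Bmp4 and Wnt5a. Only the epithelial ligands Ihh and Bmp2 had H3K4me3 alone, and Smo and Ptch1 had both marks.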

How the data were processed

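H3K4me3 and H3K27me3 ChIP-seq of wt and wt+TNFα organoids was used as 4 peak lists, and neither the reads nor the inputs were analysed here. Per the paper, the authors used fastp for trimming, BWA-MEM (2.2) for alignment to mouse GRCm38/mm10 and SAMtools (1.11) for removing duplicates. Blacklisted regions were dropped, and each library's peaks were called over its input by MACS2 (2.1.0 in the submitters' processing notes, while another version is named in the reporting summary). The deposited fold enrichment is a ratio of ChIP to local background, and the authors' p-value and q-value are given as −log10. They were computed per library and serve to rank peaks within a list. A spike-in is mentioned in the names of all lists but the H3K27me3 list of wt+TNFα.

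Promoters of GENCODE genes were overlapped with the peaks (at least 1 bp). Bases of 1 condition alone were taken with bedtools subtract (2.31.1). Python 3.11.15 and matplotlib 3.10.9 were used, and the scripts were tested on simulated data. All forkhead genes were counted, and 1 of them and some genes of the other lists are not reported here by name. Peak values were given to genes with H3K4me3 alone, with a state or a promoter share (by 20 percentage points) that differed, with the widest or strongest peaks, or within 100 kb of each other, and other genes were named after their values were seen. The genes and lists were chosen with earlier results of these data known. The alternatives were other promoter windows and overlaps, stricter peaks, equal covered length and whole-peak subtraction.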

Additional observations from a re-analysis of the deposited data

How the results depend on the processing

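No paired analysis was possible because each condition and mark has 1 library. For the same reason the error of every count is unknown. Of the recomputed values, 108 were within 1.5 times the main value and 25 were not, and 27 of the 41 genes had the same pair of states under all 9 settings for states. The share of all genes under the same setting is in brackets. When peaks had to exceed their list's median −log10 q, both marks were called at 1 gene in wt (0.985%) and 1 in wt+TNFα (1.33%), H3K4me3 bases in wt+TNFα alone at 7 (25.4%) and in wt alone at 6 (12.6%). With equal covered autosomal length, both marks were called at 2 genes in wt+TNFα (2.61%), H3K27me3 bases in wt+TNFα alone were at 3 (8.65%), and the median share of the gene body in wt+TNFα was 3.14%. The state then differed at 6 of the 41 forkhead genes (10.4%), and with equal numbers of peaks at 4 (8.33%). The forkhead share lay above that of all genes in both and below with all peaks, but the counts differ by few genes. Both cuts removed peaks from the wt+TNFα lists alone, so no direction is read from them. The share with H3K4me3 bases in wt+TNFα alone rested on 1 gene with whole peaks subtracted, near the share of all genes. When peaks had to exceed their list's median −log10 q, H3K4me3 alone was called at 14 genes in wt (30.4%) and 13 in wt+TNFα (31%). These forkhead shares were then not below those of all genes, as they were with all peaks. With promoters of 500 bp on each side, the state differed at 1 gene (8.99%), and bases in wt+TNFα alone were at 3 genes for H3K27me3 (14.7%) and 6 for H3K4me3 (26.8%). With 2000 bp these were 8 (23.7%) and 18 (47.3%). H3K27me3 bases in wt+TNFα alone were at 2 genes with upstream promoters (15%), at 2 with 1 start per gene (12.5%) and at 3 with a −log10 q of at least 2 (12%), where the median body share was 0.466% in wt and 3.14% in wt+TNFα. With an overlap of 200 bp, H3K4me3 bases were at 2 genes in wt+TNFα alone (10.9%) and at 3 in wt alone (2.49%). With whole peaks subtracted, H3K27me3 was at 0 genes in wt alone (1.54%) and 2 in wt+TNFα alone (7.06%), and H3K4me3 at 2 (0.913%) and 1 (1.88%). The different state of Foxf1 was called under 8 of the 9 settings, that of Foxl2 under 5 and that of Foxh1 under 4, while with promoters of 2000 bp Foxh1 had H3K4me3 alone in wt and both marks in wt+TNFα. The nearest H3K4me3 peak lay 1520 bp from a Foxh1 start in wt and 1321 bp in wt+TNFα. Ppp1r16a, which had H3K4me3 alone, starts 1667 bp away on the other strand, so that signal cannot be given to Foxh1. The lower H3K27me3 cover of Foxj1 and the higher one of Foxs1 were called under 9 of 10 settings for bases. The setting that both marks share a start or bases, chosen after seeing the data, left 6 genes in wt and 4 in wt+TNFα (3.72% and 4.15% on shared bases). The cause of these shifts was not tested.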
